A study of Mus musculus with 28 samples.

Results

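The genes described here are 35 genes of the lysosome, chosen by name as enzymes, enzyme partners and membrane proteins of that organelle. These genes, and the lists set beside them, were chosen with earlier results of these data known. Their counts are therefore description and not a test against the shares over all genes. The 35 are among 12954 genes listed in either of 2 deposited tables, and each of the 35 was listed in both, among 12315 genes in whole kidney and 10523 genes in sorted kidney macrophages. By role they comprise 7 cysteine proteases (cathepsins B, C, H, L, S and Z, and legumain), 3 other peptidases, 9 enzymes that cleave sugars or sulfate from glycoconjugates, 3 enzymes of lipid substrates, 5 activator, sorting or cholesterol proteins and 8 membrane proteins.

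The lysosome is the acidic compartment in which cells digest material taken up from outside and their own worn-out parts. Its hydrolases are made as inactive or weakly active precursors, travel from the Golgi with a mannose 6-phosphate tag or on sortilin-type receptors, and work at the low pH kept by the V-ATPase proton pump. In macrophages they break down engulfed cells and immune complexes and trim antigens for MHC class II, and in the proximal tubule of the kidney they digest filtered protein. Many of their genes carry an E-box (CACGTG, extended to TCACGTGA in the CLEAR element) bound by TFEB, TFE3 and MITF.

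RNA sequencing was carried out on female C57BL/6 littermates of 7 to 9 months in 4 genotypes. These were WT mice, Rhbdf2-/- mice (no iRhom2, the partner that brings the shedding protease ADAM17 to the cell surface), Fcgr2b-/- mice (no inhibitory IgG receptor, a lupus-prone genotype) and mice lacking both genes (Fcgr2b-/-Rhbdf2-/-, here the double mutant). Whole kidney gave 4 libraries per genotype and CD45+F4/80hiCD11b+Ly6G-Ly6C- macrophages sorted from digested kidney gave 3 per genotype. The comparisons ask what loss of Fcgr2b did to these genes and what the added loss of Rhbdf2 did. The labels do not say which part of either gene was deleted, nor whether each library came from its own mouse. The p-values therefore reflect the spread of these libraries, which may be technical.

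Libraries held 29013859 to 41615889 reads in listed genes in kidney and 30848926 to 34868310 in macrophages. In kidney each genotype had a sequencing lane to itself in the labels, and effects of lane and of genotype cannot be told apart. Among the double-mutant kidneys the library iR2ko_65 stood apart: its 14 macrophage markers summed to 465 CPM (reads of a gene per 1000000 of a library total, as the tables give them), against a group median of 1303 CPM and a highest value of 1774 CPM. The CPM of the listed genes alone summed to more than 1000000 in 9 of 16 kidney libraries and 6 of 12 macrophage libraries (823475 to 1100314 and 896825 to 1114049), so those totals are not the plain read totals, and their scaling is not described in the labels or headers. Reads of Rhbdf2 and Fcgr2b were present in the libraries that lack these genes, and since they may lie outside the deleted parts they do not check the labels. Macrophage markers were measured for 14 of 14 genes in the sorted cells. Their sum was 25880 to 35596 CPM over the WT libraries and 48913 to 64450 CPM over the Fcgr2b-/- libraries. The mean of the sum went from 29139 to 54407 CPM, most of that difference being Lyz2. Single genes of these cells did not move together. From WT to Fcgr2b-/-, means were higher for Lyz2 (3587 to 23913 CPM), Itgam (158 to 1213) and Cd68 (1409 to 2230). Means were lower for Adgre1 (2685 to 2077 CPM), Csf1r (3278 to 3112) and Ptprc (1442 to 917). Cd68 and Ptprc are not among the 14 markers, and Cd68 is among the 35 genes described here. Library ranges overlapped for Adgre1 and Csf1r. Whether the sum follows macrophage content or purity was not tested. In bulk RNA, fewer cells of a type and less RNA per cell cannot be told apart.

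The promoter sequences are shown first, and the members with the highest changes in Fcgr2b-/- macrophages (Ctsd, Gla and Ctsl) are among those that carry the E-box. Grn and Cd63, which also rose there, have a promoter without it, and Galns and Ctsb, which rose too, had no promoter to search. RefSeq promoters (GRCm38.p6, 250 bases before to 50 after the start) were matched by symbol for 30 of the 35 members, with none for Ctsb, Ctsh, Galns, Npc1 and Asah1. CACGTG, which reads the same on both strands, occurred in 9 of the 30 (30%) and in 2187 of 27025 genes with a promoter in the table (8.09%). TCACGTGA, which contains it and also reads the same on both strands, occurred in 4 of the 30 (13.3%) and in 304 of 27025 genes (1.12%). The 27025 include genes that neither deposited table lists, while the members are listed in both. Among listed genes with a promoter, CACGTG was present in 990 and absent from 7033 in macrophages. In kidney it was present in 1103 and absent from 8185. For TCACGTGA the counts were 192 and 7831 in macrophages and 204 and 9084 in kidney. Both motifs were thus more frequent among listed genes than over the 27025. A match is a description of these letters and not evidence of binding. The 4 members with TCACGTGA were Ctsd (chr7:142387778-142388077, minus strand), Gla (chrX:134600956-134601255, minus strand), Ctsa (chr2:164833523-164833822, plus strand) and Mcoln1 (chr8:3500269-3500568, plus strand), whose promoters are printed whole on the gene's strand, with matches in capitals.
Ctsd: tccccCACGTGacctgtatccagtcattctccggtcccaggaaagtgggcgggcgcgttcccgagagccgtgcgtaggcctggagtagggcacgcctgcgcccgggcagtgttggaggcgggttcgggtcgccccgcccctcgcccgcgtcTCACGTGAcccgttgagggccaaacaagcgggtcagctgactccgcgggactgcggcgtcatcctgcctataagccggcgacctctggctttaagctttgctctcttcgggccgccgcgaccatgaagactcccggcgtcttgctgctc
Gla: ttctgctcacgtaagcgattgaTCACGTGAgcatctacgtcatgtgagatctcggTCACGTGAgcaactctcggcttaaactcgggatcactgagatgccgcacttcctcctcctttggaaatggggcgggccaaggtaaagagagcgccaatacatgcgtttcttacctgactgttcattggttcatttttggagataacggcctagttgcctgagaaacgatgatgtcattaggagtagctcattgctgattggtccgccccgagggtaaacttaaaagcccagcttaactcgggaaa
Ctsa: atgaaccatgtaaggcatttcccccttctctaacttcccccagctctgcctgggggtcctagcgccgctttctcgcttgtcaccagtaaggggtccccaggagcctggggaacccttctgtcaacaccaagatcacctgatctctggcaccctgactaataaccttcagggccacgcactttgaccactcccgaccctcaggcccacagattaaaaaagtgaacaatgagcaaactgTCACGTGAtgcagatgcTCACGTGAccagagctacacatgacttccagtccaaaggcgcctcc
Mcoln1: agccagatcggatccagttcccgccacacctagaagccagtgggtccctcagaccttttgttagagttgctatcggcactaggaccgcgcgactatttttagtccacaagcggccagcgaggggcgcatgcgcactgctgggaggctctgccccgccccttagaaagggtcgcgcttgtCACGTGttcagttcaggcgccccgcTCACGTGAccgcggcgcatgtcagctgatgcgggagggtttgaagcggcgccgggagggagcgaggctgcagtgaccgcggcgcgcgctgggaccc
Counted from the start site, the CACGTG core began at -245 and -98 in Ctsd, at -227 and -194 in Gla, at -12 and 6 in Ctsa and at -71 and -45 in Mcoln1.

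The other 5 members had CACGTG without the full extension, and the stretch around the first match is printed to compare the flanking bases. These are Ctsl (chr13:64370724-64370770, minus strand), Lgmn (chr12:102439109-102439168, minus strand), Lamp1 (chr8:13159073-13159132, plus strand), Glb1 (chr9:114401003-114401062, plus strand) and Gaa (chr11:119267796-119267855, plus strand).
Ctsl: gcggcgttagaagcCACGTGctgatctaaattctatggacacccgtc
Lgmn: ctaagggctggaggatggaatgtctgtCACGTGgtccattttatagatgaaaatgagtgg
Lamp1: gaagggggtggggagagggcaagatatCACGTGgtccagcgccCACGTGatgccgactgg
Glb1: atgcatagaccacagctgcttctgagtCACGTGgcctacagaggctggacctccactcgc
Gaa: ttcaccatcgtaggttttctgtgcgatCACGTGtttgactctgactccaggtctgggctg
Lamp1 had 4 matches, beginning at -61, -45, -28 and -15, of which the printed stretch holds the first 2, while the single matches began at -236 in Ctsl, -49 in Lgmn, -48 in Glb1 and -140 in Gaa. Lgmn has 2 starts in the RefSeq table, and only the window of the inner one, which lies within the gene as the files place it (chr12:102394084-102439813, minus strand), holds CACGTG. The bases after that inner start were in no GENCODE vM21 transcript of the gene, while those of the other 8 members with a match were. Ctsa also has 2 starts, each with its bases in a transcript. Only the window printed above for Ctsa, which lies within the gene as the files place it (chr2:164832873-164841032, plus strand), holds CACGTG.

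In macrophages sorted from Fcgr2b-/- kidneys, 21 of the 35 members rose against WT, 1 (Fuca1) fell and 13 did not pass the test. Over all 10523 genes tested, 24.2% were called higher and 28.5% lower in this comparison. The median change of the members was 0.54 on the log2 scale, and that of all genes -0.091. All log2 changes of genes given here are on the log2(CPM + 1) scale, from limma, with a call at a Benjamini-Hochberg adjusted p below 0.05 over all genes. Together the 35 genes took 4.56% ± 0.0872 (SD, n = 3) of the CPM in WT macrophages and 8.81% ± 1.33 (SD, n = 3) in Fcgr2b-/- macrophages.

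**Figure D1:**
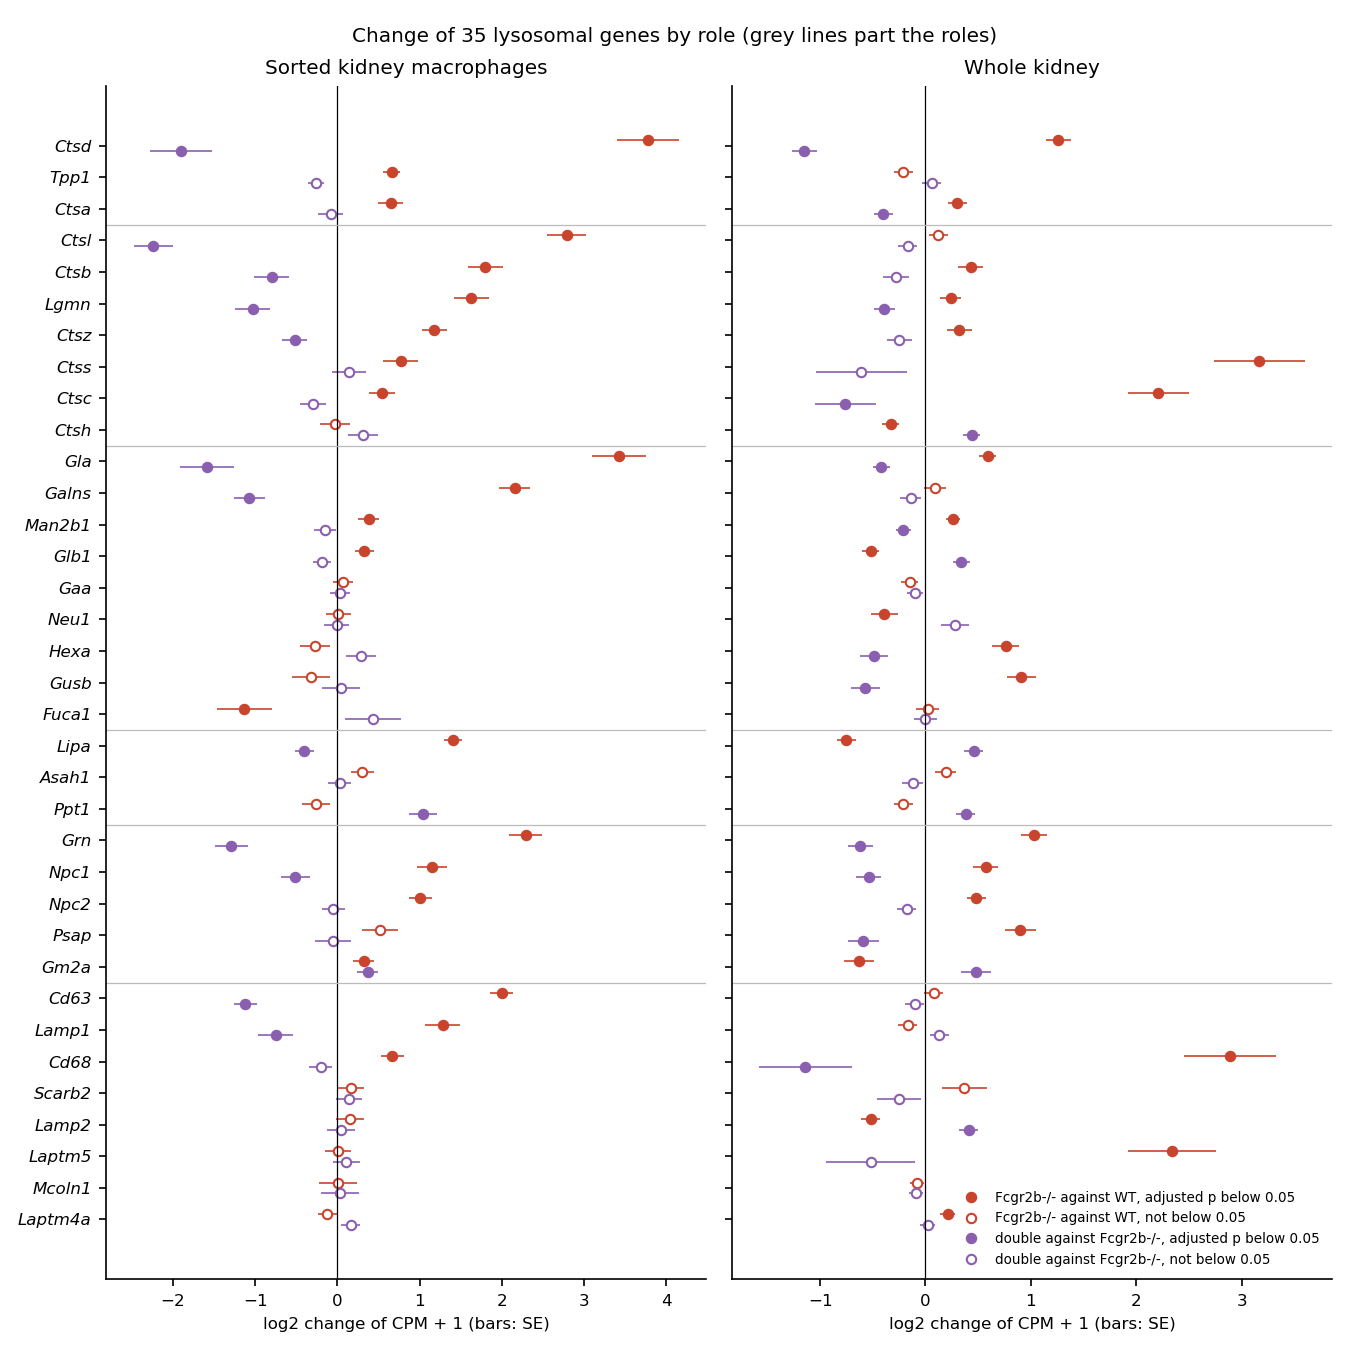
Change of each of the 35 genes on the log2(CPM + 1) scale (x axis, bars SE) in sorted macrophages (left) and whole kidney (right), for Fcgr2b-/- against WT (red) and the double mutant against Fcgr2b-/- (purple); filled points passed adjusted p below 0.05 and grey lines part the roles. In macrophages Ctsd, Gla and Ctsl had the highest changes in Fcgr2b-/- (3.78, 3.43 and 2.79), and in kidney Ctss, Cd68 and Laptm5 did (3.17, 2.89 and 2.34).

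Among the peptidases, Ctsd, the main aspartic protease of the lysosome (chr7:142371148-142388038, minus strand), moved the most of the 35. Its 3 WT libraries held 623, 561 and 460 CPM and the Rhbdf2-/- libraries 720, 761 and 579.2 CPM. In Fcgr2b-/- the libraries held 4542, 9844 and 9332 CPM and the double-mutant libraries 3430, 2184 and 1079 CPM. No group overlapped Fcgr2b-/-, and the double mutant lay between it and the WT and Rhbdf2-/- libraries. Ctsd rose by 3.78 ± 0.38 (SE) in Fcgr2b-/- against WT (adjusted p = 1.64e-05), a 14.4-fold difference of means. It fell by 1.90 ± 0.38 in the double mutant against Fcgr2b-/- (adjusted p = 0.00326). The serine carboxypeptidase Ctsa and the tripeptidyl peptidase Tpp1 rose by 0.65 ± 0.15 and 0.66 ± 0.10 in Fcgr2b-/-, and neither passed the test between the double mutant and Fcgr2b-/-.

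Of the 7 cysteine proteases, 6 rose in Fcgr2b-/- macrophages. Ctsl, which cleaves engulfed proteins and antigens (chr13:64363214-64370306, minus strand), held 131, 104 and 79 CPM in WT, 157, 141 and 120 in Rhbdf2-/-, 503, 723 and 999 in Fcgr2b-/- and 182, 146 and 127 in the double mutant. High values were those of the Fcgr2b-/- libraries, and the double-mutant libraries overlapped those of Rhbdf2-/-. The rise was 2.79 ± 0.24 (adjusted p = 7.53e-06), and the fall in the double mutant against Fcgr2b-/- was -2.24 ± 0.24 (adjusted p = 0.000157). Ctsb, which acts as both an endopeptidase and a peptidyl-dipeptidase, rose by 1.80 ± 0.21, from 5867 ± 308 (SD, n = 3) to 20710 ± 4602 CPM. The asparaginyl endopeptidase Lgmn rose by 1.63 ± 0.21 and the carboxypeptidase Ctsz by 1.18 ± 0.15. Ctss, which cuts the invariant chain in antigen presentation, rose by 0.77 ± 0.21, and Ctsc, which activates granule serine proteases, rose by 0.54 ± 0.16. Both calls were lost in a fit of these 2 groups alone (adjusted p = 0.066 and 0.0715). The aminopeptidase Ctsh had a change of -0.03 ± 0.18 and did not pass.

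**Figure D2:**
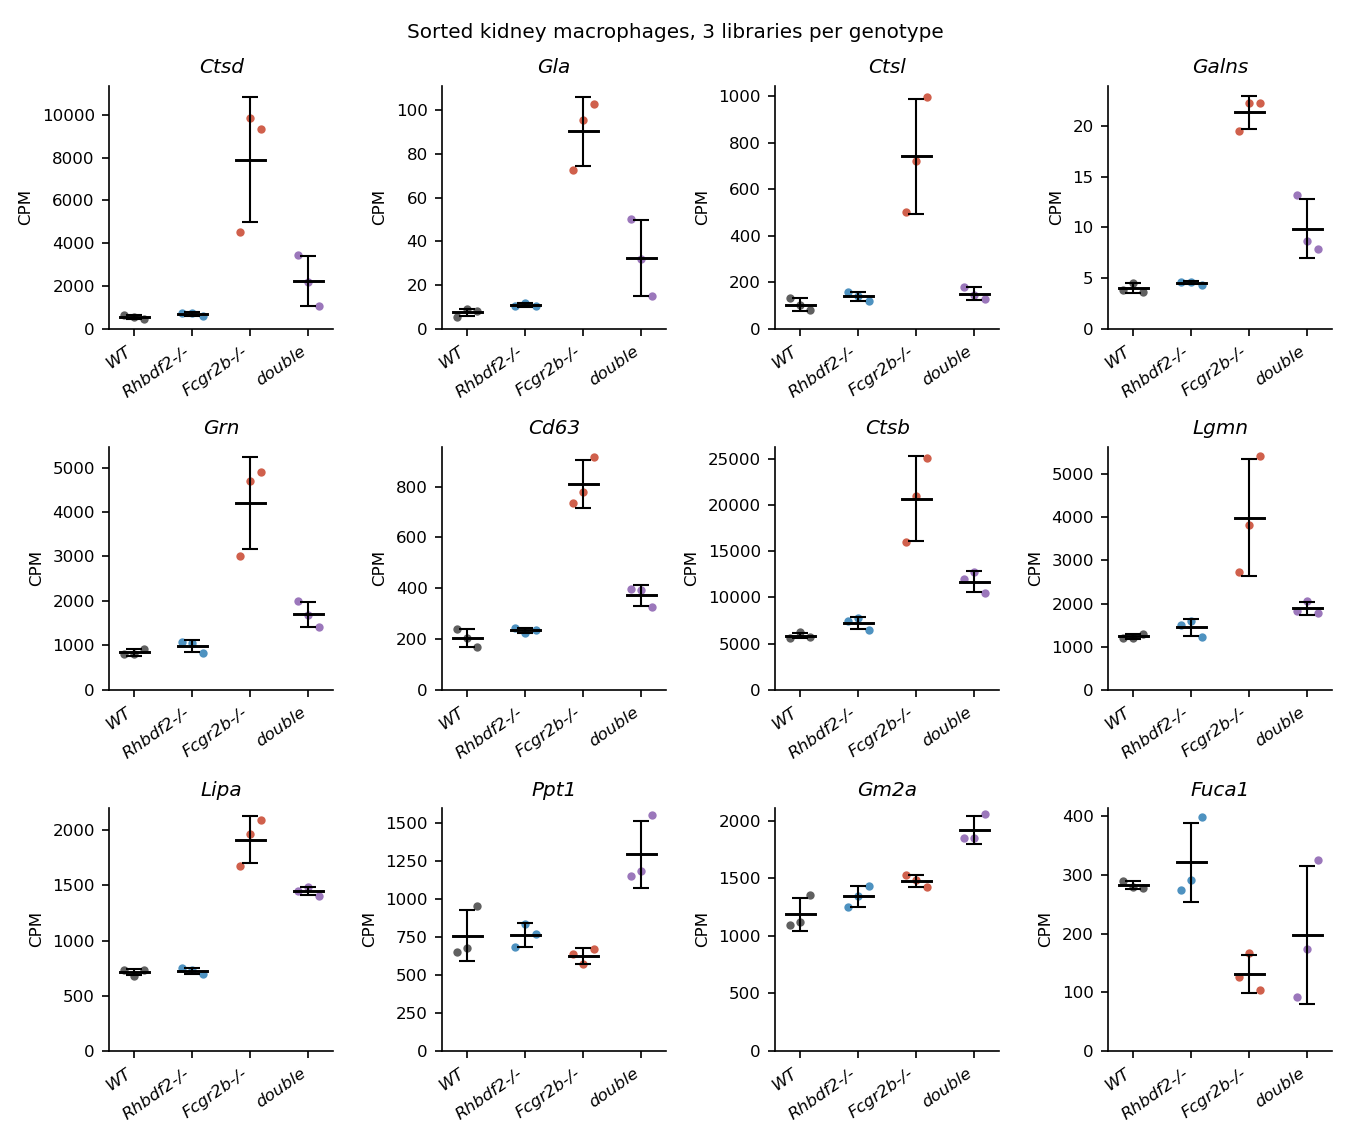
CPM (y axis, from 0) of 12 of the genes in each of the 3 macrophage libraries per genotype, with the mean (bar) and SD (whiskers). In Ctsl the Fcgr2b-/- libraries lay at 503 to 999 CPM with the other 9 libraries at 79 to 182, and in Ppt1 the double-mutant libraries lay at 1153 to 1550 CPM with the others at 570 to 953.

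The 9 sugar and sulfate enzymes divided. Gla, the alpha-galactosidase A whose loss causes Fabry disease (chrX:134588149-134601125, minus strand), held 5.58, 8.93 and 7.96 CPM in WT, 10.6, 11.8 and 10.4 in Rhbdf2-/-, 72.7, 95.5 and 103 in Fcgr2b-/- and 50.2, 31.9 and 15.1 in the double mutant. No 2 of the 4 groups overlapped. Gla rose by 3.43 ± 0.33 in Fcgr2b-/- (adjusted p = 1.38e-05) and fell by 1.59 ± 0.33 in the double mutant against Fcgr2b-/- (adjusted p = 0.00396). Galns, the sulfatase that starts keratan sulfate breakdown (chr8:122578238-122611487, minus strand), held 3.86, 4.55 and 3.63 CPM in WT, 4.66, 4.64 and 4.36 in Rhbdf2-/-, 19.5, 22.3 and 22.3 in Fcgr2b-/- and 13.2, 8.64 and 7.84 in the double mutant. Its Fcgr2b-/- and double-mutant groups did not overlap with each other or with the rest. Galns rose by 2.16 ± 0.19 (adjusted p = 7.14e-06) and fell by 1.07 ± 0.19 in the double mutant against Fcgr2b-/- (adjusted p = 0.0017). The alpha-mannosidase Man2b1 rose by 0.38 ± 0.13, a call lost without WTa, FcR2bko_595 or FcR2bko_875 (adjusted p = 0.06, 0.0519 and 0.0938), on the non-mitochondrial total (0.0692) and in a fit of these 2 groups alone (0.0892).

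Glb1, the beta-galactosidase (chr9:114401076-114474376, plus strand), held 96.3, 103 and 81 CPM in WT macrophages, 104, 99.5 and 107 in Rhbdf2-/-, 112, 125 and 113 in Fcgr2b-/- and 103, 98.8 and 103 in the double mutant. Fcgr2b-/- values were the highest, without overlap. The rise was 0.33 ± 0.11 (adjusted p = 0.0206), and it was lost without WT2 or FcR2bko_595 (adjusted p = 0.0636 and 0.0783), on the non-mitochondrial total (0.24, adjusted p = 0.187) and in a fit of these 2 groups alone (adjusted p = 0.0691). Fuca1, which removes fucose, was the only member to fall, by 1.13 ± 0.34 (adjusted p = 0.0159), a call lost without FcR2bko_875 (adjusted p = 0.0641). Hexa, Gusb, Gaa and Neu1 had changes from -0.32 to 0.07 and did not pass.

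Among lipid enzymes and their partners, Lipa, the acid lipase that frees cholesterol from its esters (chr19:34492318-34527474, minus strand), held 733, 680 and 732 CPM in WT, 747, 733 and 693 in Rhbdf2-/-, 1679, 1969 and 2097 in Fcgr2b-/- and 1451, 1485 and 1408 in the double mutant. Both Fcgr2b-deficient groups lay above both others, and the double mutant lay below Fcgr2b-/-. The rise was 1.41 ± 0.11 (adjusted p = 4.87e-06). The fall in the double mutant against Fcgr2b-/- was -0.40 ± 0.11 (adjusted p = 0.0216), and it was lost without FcR2bko_595, FcR2bko_875 or iR2ko_592 (adjusted p = 0.0673, 0.0733 and 0.0657) and in a fit of these 2 groups alone (adjusted p = 0.0733). Npc1 and Npc2, which export cholesterol from the lysosome, rose by 1.15 ± 0.18 and 1.01 ± 0.14 in Fcgr2b-/-.

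Ppt1, a thioesterase that removes palmitate from proteins (chr4:122836242-122859175, plus strand), went the other way in the double mutant. It held 649, 674 and 953 CPM in WT, 682, 834 and 772 in Rhbdf2-/-, 636, 570 and 673 in Fcgr2b-/- and 1153, 1184 and 1550 in the double mutant. The double-mutant libraries were above all others. Ppt1 rose by 1.04 ± 0.17 in the double mutant against Fcgr2b-/- (adjusted p = 0.00117), while its change of -0.26 ± 0.17 in Fcgr2b-/- against WT did not pass.

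Grn, progranulin, a secreted and lysosomal protein cut into granulins (chr11:102430315-102437048, plus strand), held 797, 806 and 926 CPM in WT macrophages, 1085, 1055 and 836 in Rhbdf2-/-, 3021, 4705 and 4895 in Fcgr2b-/- and 1996, 1673 and 1422 in the double mutant. The double-mutant group lay between Fcgr2b-/- and the others without overlap. Grn rose by 2.29 ± 0.20 (adjusted p = 7.47e-06) and fell by 1.29 ± 0.20 in the double mutant against Fcgr2b-/- (adjusted p = 0.000913). Gm2a, the activator of GM2 ganglioside breakdown (chr11:55098115-55113029, plus strand), held 1093, 1121 and 1355 CPM in WT, 1255, 1345 and 1434 in Rhbdf2-/-, 1528, 1484 and 1426 in Fcgr2b-/- and 1850, 1848 and 2062 in the double mutant. Its Fcgr2b-/- libraries overlapped those of Rhbdf2-/- and not those of WT, and the double mutant was highest. Gm2a rose by 0.32 ± 0.13 in Fcgr2b-/- (adjusted p = 0.0475) and by 0.37 ± 0.13 in the double mutant against Fcgr2b-/- (adjusted p = 0.0404). These Gm2a calls were lost in 11 and 10 of the 12 fits that left out 1 library (adjusted p up to 0.151 and 0.131), and both in fits of the compared groups alone (0.133 and 0.0679). Psap, the saposin precursor, had a change of 0.52 ± 0.22 in Fcgr2b-/- (adjusted p = 0.0624) and was not called. In the authors' own comparison its log2 change was 0.547 with an FDR of 0.0304.

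Of the 8 membrane proteins, 3 rose in Fcgr2b-/- macrophages. Cd63, a tetraspanin of late endosomes and lysosomes (chr10:128908919-128912816, plus strand), held 238, 203 and 167 CPM in WT, 244, 224 and 236 in Rhbdf2-/-, 737, 777 and 918 in Fcgr2b-/- and 397.6, 392 and 324 in the double mutant. Neither the Fcgr2b-/- nor the double-mutant libraries overlapped with another group. Cd63 had the smallest p of the 35, with a rise of 2.00 ± 0.14 (adjusted p = 1.91e-06) and a fall in the double mutant against Fcgr2b-/- of -1.12 ± 0.14 (adjusted p = 0.000331). Lamp1, an abundant glycoprotein of the lysosomal membrane, rose by 1.28 ± 0.21, and Cd68, the macrophage homologue of the LAMP proteins, by 0.67 ± 0.14. Lamp2, Laptm4a, Laptm5, Scarb2 and the calcium channel Mcoln1 had changes from -0.12 to 0.16 and did not pass.

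With Rhbdf2 lost as well, 12 of the 35 members fell against Fcgr2b-/- macrophages (13.8% of all genes) and 2 rose (15.8% of all genes). The 12 were Ctsd, Ctsl, Ctsb, Lgmn, Ctsz, Gla, Galns, Lipa, Grn, Npc1, Cd63 and Lamp1, and the 2 were Ppt1 and Gm2a. The median change of the members was -0.08, and that of all genes 0.035. Scaling on the total of non-mitochondrial reads changed the split over all genes from 1663 higher and 1450 lower to 1232 higher and 1828 lower, with 2 members higher and 15 lower. Of the 12, Npc1 lost its call in 10 of the 12 fits that left out 1 library (adjusted p up to 0.176), Ctsz in 5 (up to 0.0755), Lamp1 in 4 (up to 0.0827), Lipa in 3 and Ctsb in 2, without FcR2bko_875 or iR2ko_592 (up to 0.0586). The count of 12 fell to 7 without FcR2bko_875. The rise count was 1 without any of the Fcgr2b-/- or Rhbdf2-/- libraries, WTb, iR2ko_823 or iR2ko_592.

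Against WT macrophages the double mutant still had 16 members higher and none lower, against 9.88% and 8.58% of all genes. At an unadjusted p below 0.05, 20 were higher and 0 lower, and voom on recovered reads called 16 and 0. Against Rhbdf2-/- macrophages it had 14 higher and 0 lower, against 9.2% and 9.03% of all genes, with 16 higher and 1 lower at an unadjusted p below 0.05 and 13 and 0 by voom. In the comparison with WT, Lipa (1.02 ± 0.11), Npc2 (0.95 ± 0.14), Cd63 (0.88 ± 0.14), Galns (1.09 ± 0.19) and Gla (1.84 ± 0.33) rose. The comparisons with WT, Rhbdf2-/- and Fcgr2b-/- share the double-mutant libraries. The 16 became 9 without WTa or WTb, and 1 member was lower without iR2ko_592. The 14 became 4 without iR2ko_KOa or iR2ko_579, 7 without iR2ko_KOb, 6 without iR2ko_KO3, 8 without iR2ko_823 and 9 without iR2ko_592, the last with 2 lower. Over all genes the split against WT was 1040 higher and 903 lower, 540 and 1483 on the non-mitochondrial total, which moved the median of all genes from -0.022 to -0.200, and 1404 and 748 with each library centred on its median. Against Rhbdf2-/- the 3 splits were 968 and 950, 567 and 1067 (median -0.021 to -0.136), and 1443 and 752.

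With Rhbdf2 loss alone no member was called in macrophages by limma (0.019% of all genes higher and 0% lower, 2 genes and 0 genes). At an unadjusted p below 0.05, 1 member was higher and 0 lower, and voom called 0. A lack of calls with 3 libraries per genotype does not show a lack of change. The authors' own log2 changes were positive for all members but Lamp2 (-0.045) and Cd68 (-0.022), at an FDR of 0.999. Together the 35 genes took 4.58 to 5.22% of the CPM, against 4.5 to 4.66% in WT. Library weights alone among the alternatives gave member calls, 8 higher, and they called 685 of all 10523 genes higher and 478 lower. The effect of Fcgr2b loss differed with and without Rhbdf2, by a test of that difference, for 9 members: 8 had a smaller rise without Rhbdf2 (5.89% of all genes were called lower) and 1, Ppt1, a larger change (6.03% called higher). The 8 were Ctsl (-2.67 ± 0.34), Ctsd (-2.22 ± 0.53), Gla (-2.10 ± 0.46), Grn (-1.52 ± 0.28), Cd63 (-1.35 ± 0.20), Lgmn (-1.24 ± 0.30), Galns (-1.22 ± 0.27) and Ctsb (-1.10 ± 0.30). The 8 became 5 without iR2ko_KOa or iR2ko_KOb, and the call of Ppt1 was lost without FcR2bko_595 or iR2ko_KOa (adjusted p up to 0.0595). Ctsb lost its call in 10 of 12 such fits (adjusted p up to 0.0944), Lgmn in 4 (up to 0.0581) and Ctsd in 3, without iR2ko_KOa, iR2ko_KOb or FcR2bko_595 (up to 0.056).

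The makeup of the sorted cells also moved with genotype, and the part of that in these results was not tested. Proximal tubule markers, 12 of 12 measured with none at 0 reads, had sums of 559 to 1860 CPM over the WT libraries and 1034 to 2346 over those of Rhbdf2-/-. Fcgr2b-/- had 157 to 729 CPM and the double mutant 308 to 564, and 8 of the 12 were lower in Fcgr2b-/- than in WT. The 5 measured distal nephron markers, none at 0 reads, summed to 1496 to 6825, 2705 to 3054, 379 to 1012 and 409 to 2242 CPM in the same order. Dendritic cell markers, 3 of 5 listed and none at 0 reads, lay at 34.8 to 80 CPM (WT), 51.6 to 109 (Rhbdf2-/-), 1.69 to 10.8 (Fcgr2b-/-) and 81.5 to 185 (double mutant). T and NK cell markers, 5 of 5 with none at 0 reads, lay at 48.2 to 116 CPM (WT), 41.2 to 238 (Rhbdf2-/-), 11.1 to 25.8 (Fcgr2b-/-) and 23.8 to 241 (double mutant), and 3 of the 5 were higher in the double mutant than in Fcgr2b-/-. The single endothelium marker listed, of 5, was higher in the double mutant than in Fcgr2b-/- by 2.03, and the single neutrophil marker listed, of 5, by 0.68, and neither passed between Fcgr2b-/- and WT. Of 3 monocyte markers listed, 1 was higher in Fcgr2b-/- than in WT and 1 lower in the double mutant than in Fcgr2b-/-. Fibroblast and podocyte markers were not listed. Mitochondrial transcripts had shares of the CPM of 1.23 to 3.96% (WT), 1.94 to 2.94% (Rhbdf2-/-), 0.721 to 1.06% (Fcgr2b-/-) and 0.891 to 1.24% (double mutant). Itgam, which encodes the CD11b of the sorting gate, held 123 to 223 CPM (WT), 104 to 195 (Rhbdf2-/-), 1046 to 1442 (Fcgr2b-/-) and 443 to 721 (double mutant). Tubular injury markers were also highest in Fcgr2b-/-. Of 6, 3 were listed, 3 of the 3 were higher in Fcgr2b-/- than in WT and 3 lower in the double mutant than in Fcgr2b-/-, with Lcn2 at 0 reads in some libraries. Their sum was 290 to 971 CPM (WT), 482 to 838 (Rhbdf2-/-), 8087 to 9665 (Fcgr2b-/-) and 259 to 851 (double mutant), most of it Spp1, the secreted osteopontin, which macrophages can also make and which held 7837 to 9384 CPM in Fcgr2b-/-. Macrophage markers themselves, 14 of 14 with none at 0 reads, gave 8 higher and 0 lower in Fcgr2b-/- than in WT, and summed to 28840 to 31903 CPM in Rhbdf2-/- and 41140 to 48651 in the double mutant.

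Read against the promoters shown at the start, 7 of the 9 members with CACGTG rose in Fcgr2b-/- macrophages, with a median change of 1.28. These were Ctsd, Gla, Ctsa, Ctsl, Lgmn, Lamp1 and Glb1, while Mcoln1 and Gaa did not pass. Of the 21 members with a promoter in the table and no CACGTG there, 11 rose, with a median of 0.38. Over all genes with a promoter in the table, 29.4% of 990 with CACGTG and 23.7% of 7033 without it were called higher. Between the double mutant and Fcgr2b-/-, 5 of the 9 and 4 of the 21 fell, against 17% and 13.6% of all genes with and without the motif. In kidney the order was the other way: 4 of the 9 with CACGTG and 12 of the 21 without it rose in Fcgr2b-/- (medians 0.12 and 0.32), against 27.4% and 29.4% of all genes. Between the double mutant and Fcgr2b-/- kidneys, 4 of the 9 and 7 of the 21 fell, against 24% and 22.7% of all genes. Over the 23 members with a start whose bases were found in a GENCODE transcript, which places Lgmn among those without the motif, 6 of 8 with CACGTG and 9 of 15 without it rose in macrophages (medians 0.97 and 0.54), and 3 of 8 and 10 of 15 in kidney. No test was made of these shares.

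In whole kidney the members moved in both directions on loss of Fcgr2b. Of the 35 members, 18 rose against WT (29.5% of all 12315 genes were called higher), 6 fell (30.8% called lower) and 11 did not pass. The median change was 0.24, and that of all genes -0.009. The 6 that fell were Lipa, Gm2a, Glb1, Lamp2, Neu1 and Ctsh. The members together took 1.22% ± 0.0222 (SD, n = 4) of the CPM in WT, 1.2% ± 0.00957 in Rhbdf2-/-, 1.79% ± 0.198 in Fcgr2b-/- and 1.37% ± 0.153 in the double mutant. Scaling on the non-mitochondrial total moved the median of all genes to 0.165 and the split over all genes from 3627 higher and 3795 lower to 5199 and 2358, with 22 members higher and 4 lower. With each library centred on its median, 15 were higher and 9 lower. Mitochondrial transcripts took 5.87% to 14.5% of the CPM in Fcgr2b-/- kidneys and 10.4% to 11.8% in WT.

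Among the cysteine proteases of the kidney, Ctss (chr3:95526786-95556403, plus strand) had the highest change of the 35. WT libraries held 23.9, 28.5, 32.6 and 27.5 CPM, Rhbdf2-/- 37.6, 23.4, 46 and 53.3, Fcgr2b-/- 373, 163, 368 and 202, and the double mutant 160, 266, 332 and 58.7. Both Fcgr2b-deficient groups lay above the others, and they overlapped each other, with the library iR2ko_65 the lowest at 58.7 CPM. Ctss rose by 3.17 ± 0.43 (adjusted p = 2.58e-05), a 9.83-fold difference of means, and its change of -0.61 ± 0.43 between the double mutant and Fcgr2b-/- did not pass (adjusted p = 0.27).

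Ctsc (chr7:88278085-88310888, plus strand) held 31, 32, 33.2 and 34.2 CPM in WT, 44.9, 32.6, 40.6 and 39.1 in Rhbdf2-/-, 224, 112, 217 and 104 in Fcgr2b-/- and 89.6, 116, 138 and 46.9 in the double mutant. The order of the groups was that of Ctss, again with iR2ko_65 lowest in its group. Ctsc rose by 2.21 ± 0.29 (adjusted p = 1.93e-05) and had a fall of -0.76 ± 0.29 in the double mutant against Fcgr2b-/- (adjusted p = 0.046), a call lost in 12 of the 16 fits that left out 1 library (adjusted p up to 0.155). Without iR2ko_65 the fall was -0.45 (adjusted p = 0.155). Ctsb, Ctsz and Lgmn rose by 0.43, 0.32 and 0.24 in Fcgr2b-/-. The call of Ctsz was lost without WT_356, WT_388, WT_550, FcR2bko_21 or FcR2bko_594 (adjusted p from 0.054 to 0.0981). Lgmn lost its call in 11 of the 16 fits (adjusted p up to 0.13).

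Ctsh (chr9:90054152-90076089, plus strand) held 242, 268, 265 and 261 CPM in WT, 284, 251, 274 and 253 in Rhbdf2-/-, 229, 228, 200 and 172 in Fcgr2b-/- and 280, 267, 285 and 290 in the double mutant. Values in Fcgr2b-/- were the lowest, without overlap. Ctsh fell by 0.33 ± 0.08 (adjusted p = 0.00337), a call lost on the non-mitochondrial scale (-0.15, adjusted p = 0.135), and rose by 0.44 ± 0.08 in the double mutant against Fcgr2b-/- (adjusted p = 0.000662). Ctsl, which moved strongly in macrophages, had a kidney change of 0.12 ± 0.09 and did not pass.

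Ctsd held 831, 849, 805 and 827 CPM in WT kidney, 853, 785, 814 and 793 in Rhbdf2-/-, 1965, 1680, 2671 and 1751 in Fcgr2b-/- and 949, 896, 973 and 767 in the double mutant. The Fcgr2b-/- libraries stood above the other 12, and the double-mutant libraries overlapped WT. Ctsd rose by 1.26 ± 0.12 (adjusted p = 1.41e-06), the smallest p of the 35 in kidney, and fell by 1.15 ± 0.12 in the double mutant against Fcgr2b-/- (adjusted p = 7.84e-06). Ctsa rose by 0.30 ± 0.09, and Tpp1 had a change of -0.21 ± 0.09 that did not pass.

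**Figure D3:**
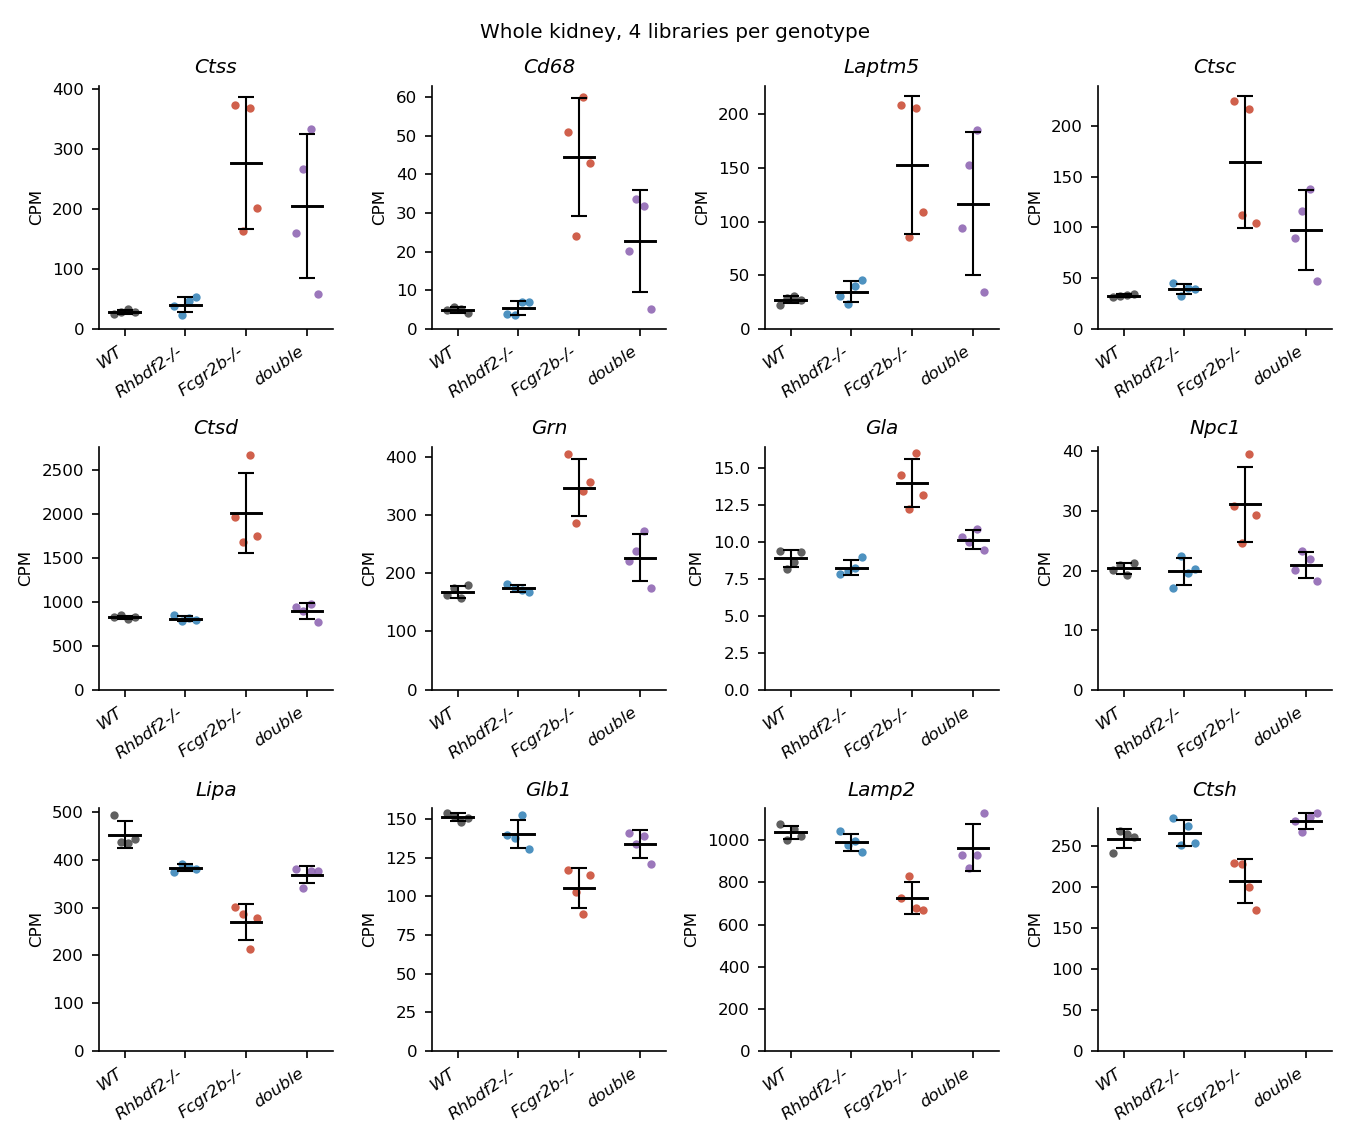
CPM (y axis, from 0) of 12 of the genes in each of the 4 whole-kidney libraries per genotype, with the mean (bar) and SD (whiskers). In Ctsd the Fcgr2b-/- libraries lay at 1680 to 2671 CPM with the other 12 at 767 to 973, while in Ctss the lowest double-mutant library was at 58.7 CPM and the other 3 at 160 to 332.

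Gla held 9.38, 8.17, 8.67 and 9.31 CPM in WT kidney, 7.84, 8.01, 8.25 and 8.96 in Rhbdf2-/-, 14.5, 12.2, 16 and 13.2 in Fcgr2b-/- and 10.3, 9.99, 10.9 and 9.43 in the double mutant. The Fcgr2b-/- libraries were the highest without overlap, and each double-mutant library lay above each WT library. Gla rose by 0.59 ± 0.08 (adjusted p = 3.51e-05) and fell by 0.42 ± 0.08 in the double mutant against Fcgr2b-/- (adjusted p = 0.00117). The hexosaminidase subunit Hexa and the beta-glucuronidase Gusb, which did not pass in macrophages, rose in kidney by 0.76 ± 0.13 and 0.91 ± 0.14, and Man2b1 by 0.26 ± 0.07.

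Glb1 went down in kidney, with 154, 152, 148 and 151 CPM in WT, 140, 138, 153 and 131 in Rhbdf2-/-, 117, 103, 88.5 and 114 in Fcgr2b-/- and 141, 134, 139 and 121 in the double mutant. Again Fcgr2b-/- was lowest, without overlap. Glb1 fell by 0.52 ± 0.08 (adjusted p = 8.53e-05) and rose by 0.34 ± 0.08 in the double mutant against Fcgr2b-/- (adjusted p = 0.00354). The sialidase Neu1 fell by 0.39 ± 0.13, a call lost without FcR2bko_21 or FcR2bko_591 (adjusted p = 0.069 and 0.0673) and on the non-mitochondrial scale (adjusted p = 0.141).

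Lipa fell too, with 495, 437, 435 and 444 CPM in WT kidney, 374, 392, 386 and 382 in Rhbdf2-/-, 302, 286, 214 and 278 in Fcgr2b-/- and 382, 342, 378 and 376 in the double mutant. Values were lowest in Fcgr2b-/- and highest in WT, and the double mutant overlapped Rhbdf2-/-. Lipa fell by 0.75 ± 0.09 (adjusted p = 7.84e-06) and rose by 0.46 ± 0.09 in the double mutant against Fcgr2b-/- (adjusted p = 0.000896). Ppt1 rose by 0.38 ± 0.09 in the double mutant against Fcgr2b-/- in kidney as well (adjusted p = 0.00459).

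Grn held 162, 174, 158 and 180 CPM in WT kidney, 182, 174, 171 and 168 in Rhbdf2-/-, 404, 286, 341 and 356 in Fcgr2b-/- and 220, 238, 272 and 175 in the double mutant. The Fcgr2b-/- libraries were the highest without overlap, and of the double-mutant libraries iR2ko_65 alone lay among those of WT. Grn rose by 1.03 ± 0.12 (adjusted p = 5.29e-06) and fell by 0.62 ± 0.12 in the double mutant against Fcgr2b-/- (adjusted p = 0.00071). Psap and Npc2 rose by 0.90 ± 0.15 and 0.48 ± 0.09 in Fcgr2b-/-.

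Npc1, on chromosome 18, held 20.1, 21, 19.2 and 21.2 CPM in WT kidney, 17.1, 22.5, 19.6 and 20.3 in Rhbdf2-/-, 30.9, 24.6, 39.6 and 29.3 in Fcgr2b-/- and 20.1, 23.2, 22 and 18.2 in the double mutant. The Fcgr2b-/- libraries stood above the other 12. Npc1 rose by 0.57 ± 0.12 (adjusted p = 0.000889) and fell by 0.54 ± 0.12 in the double mutant against Fcgr2b-/- (adjusted p = 0.00207). Gm2a held 390, 427, 397.6 and 469 CPM in WT, 455, 362, 444 and 349 in Rhbdf2-/-, 242, 340, 214 and 306 in Fcgr2b-/- and 371, 397.8, 428 and 323 in the double mutant. Its Fcgr2b-/- libraries lay below WT, with 1 of them above the lowest double-mutant library. Gm2a fell by 0.63 ± 0.14 (adjusted p = 0.00133) and rose by 0.48 ± 0.14 in the double mutant against Fcgr2b-/- (adjusted p = 0.0119), the latter not in a fit of these 2 groups alone (adjusted p = 0.0534).

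Among the membrane proteins, Cd68 and Laptm5, a lysosomal protein of blood cells, rose in Fcgr2b-/- kidney by 2.89 ± 0.44 and 2.34 ± 0.42, and Laptm4a by 0.21 ± 0.07. In the double mutant Cd68 held 20.2, 33.7, 31.9 and 5.19 CPM, the last in iR2ko_65, against 24.1 to 60.1 in Fcgr2b-/-. Its fall of -1.14 ± 0.44 (adjusted p = 0.0445) was lost in 13 of the 16 fits that left out 1 library, and it was -0.58 without iR2ko_65 (adjusted p = 0.121). Lamp2 fell by 0.52 ± 0.09 in Fcgr2b-/- and rose by 0.41 ± 0.09 in the double mutant against Fcgr2b-/-. Lamp1, Cd63, Scarb2 and Mcoln1 had kidney changes from -0.17 to 0.37 in Fcgr2b-/- and did not pass.

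Between the double mutant and Fcgr2b-/- kidneys, 12 of the 35 members fell (22.8% of all genes) and 6 rose (22.5%), with a median of -0.18 against -0.004 over all genes. The 12 were Ctsd, Ctsa, Ctsc, Lgmn, Hexa, Gla, Gusb, Man2b1, Npc1, Psap, Grn and Cd68, and the 6 were Lipa, Gm2a, Ctsh, Lamp2, Ppt1 and Glb1. Ctss and Laptm5 were not among them. On the non-mitochondrial total 18 fell and 6 rose, with the split over all genes going from 2769 higher and 2809 lower to 1996 and 3761. A fit of these 2 groups alone called 7 lower and 5 higher.

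Against WT kidneys the double mutant had 6 members higher and 0 lower by limma, against 4.52% and 2.77% of all genes. At an unadjusted p below 0.05 there were 9 and 4, and voom called 3 and 0. The 6 were Ctss (2.56 ± 0.43), Laptm5 (1.82 ± 0.42), Cd68 (1.75 ± 0.44), Ctsc (1.45 ± 0.29), Grn (0.41 ± 0.12) and Laptm4a (0.23 ± 0.07). The count was 1 without WT_346, iR2ko_370 or iR2ko_367, 2 without WT_550 and 3 without WT_388 or iR2ko_348, and 2 members were lower without FcR2bko_591. Ctss kept its call in each of the 16 such fits, while Grn and Laptm4a lost theirs in 12 each (adjusted p up to 0.159 and 0.151), Cd68 in 6, Laptm5 in 4 and Ctsc in 3. Over all genes the split was 557 higher and 341 lower, and 658 and 119 on the non-mitochondrial total.

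Against Rhbdf2-/- kidneys the double mutant had 3 members higher, Ctss, Ctsc and Cd68, and 0 lower, against 2.32% and 1.18% of all genes. At an unadjusted p below 0.05 there were 9 and 2, and voom called 1 and 0. The count of 3 was 0 without iR2ko_334, iR2ko_351, iR2ko_352, iR2ko_348, iR2ko_370 or iR2ko_367, 1 without iR2ko_355 or any WT library, and 8 without iR2ko_65. Over all genes the split was 286 higher and 145 lower, and 332 and 43 on the non-mitochondrial total. With Rhbdf2 loss alone no member was called in kidney by limma (0% of all genes in either direction). In that comparison 0 were higher and 1 lower at an unadjusted p below 0.05, and voom called 0.

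The effect of Fcgr2b loss in kidney differed with and without Rhbdf2 for 13 members, 6 with a positive and 7 with a negative difference, against 13.9% and 13.9% of all genes. The negative differences were those of Ctsd (-1.12 ± 0.17), Grn, Psap, Gusb, Hexa, Npc1 and Ctsa, and the positive ones those of Lipa (0.70 ± 0.13), Gm2a, Lamp2, Glb1, Ctsh and Ppt1. The count of 7 was 2 without iR2ko_351, iR2ko_352, WT_346, WT_388, iR2ko_348 or iR2ko_65, 3 without FcR2bko_21 or iR2ko_334, and 4 without iR2ko_355, WT_356, WT_550 or iR2ko_370. Gusb lost its call in 14 of the 16 such fits, Psap in 13, Gm2a in 12, Hexa in 11, Npc1 and Ctsa in 10 each and Ppt1 in 8, while Ctsd, Grn, Lipa, Glb1, Lamp2 and Ctsh kept theirs in each. On the non-mitochondrial total, 3 were positive and 12 negative, with the split over all genes going from 1708 and 1710 to 1294 and 2266. With each library centred on its median the negative count was 3.

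Cell type markers moved with these kidney results, and their part in them was not tested. Macrophage markers, 14 of 14 measured with none at 0 reads, lay at 314 to 364 CPM (WT), 314 to 458 (Rhbdf2-/-), 1094 to 2844 (Fcgr2b-/-) and 465 to 1774 (double mutant). In Fcgr2b-/- against WT 13 of the 14 were higher and 1 lower. Proximal tubule markers, 12 of 12 with none at 0 reads, lay at 25510 to 28250 CPM (WT), 23379 to 31795 (Rhbdf2-/-), 4759 to 9526 (Fcgr2b-/-) and 17723 to 20847 (double mutant), and 12 of the 12 were lower in Fcgr2b-/- than in WT. The 6 tubular injury markers, none at 0 reads, were all higher in Fcgr2b-/-, with sums of 8613 to 16116 CPM against 2816 to 3177 in WT, and 6 of 6 were lower in the double mutant than in Fcgr2b-/-. Fibroblast and mesangium markers, 5 of 5 with none at 0 reads, lay at 129 to 188 CPM (WT), 80.4 to 171 (Rhbdf2-/-), 372 to 1030 (Fcgr2b-/-) and 110 to 411 (double mutant), with 4 of the 5 higher in Fcgr2b-/- than in WT and 3 lower in the double mutant than in Fcgr2b-/-. Of 4 monocyte markers 3 were higher in Fcgr2b-/- than in WT, as were 2 of 2 listed neutrophil markers. In the same comparison 4 of 7 distal nephron markers were lower, of 5 endothelium markers 2 were higher and 1 lower, of 4 podocyte markers 1 was lower, and none of the 4 T and NK cell or 2 dendritic cell markers listed passed.

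Levels were compared between genes per kilobase of exon, as CPM per kb. In WT kidney the highest of the 35 were Lamp1 at 734 ± 21.4 (SD, n = 4), Psap at 606 ± 32, Cd63 at 450 ± 13.7 and Lgmn at 438 ± 46.1 CPM per kb. Cd63 and Lgmn, neighbours in that order, did not differ beyond their spread. Ctss at 20.7 ± 2.66, Laptm5 at 7.22 ± 0.935, Ctsc at 5.62 ± 0.245 and Cd68 at 3.88 ± 0.558 CPM per kb ranked 26, 30, 31 and 33. In WT macrophages the order was led by Ctss at 4290 ± 1108 (SD, n = 3), Psap at 1791 ± 21.2, Laptm5 at 1382 ± 129, Ctsb at 1238 ± 65 and Cd68 at 1121 ± 182 CPM per kb, and the last 3 overlapped within their SDs. Lamp1, first in kidney, was 26 in order in macrophages at 58.4 ± 9.82 CPM per kb. The tables of the 2 tissues were normalized separately, and levels set across them were not tested.

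**Figure D4:**
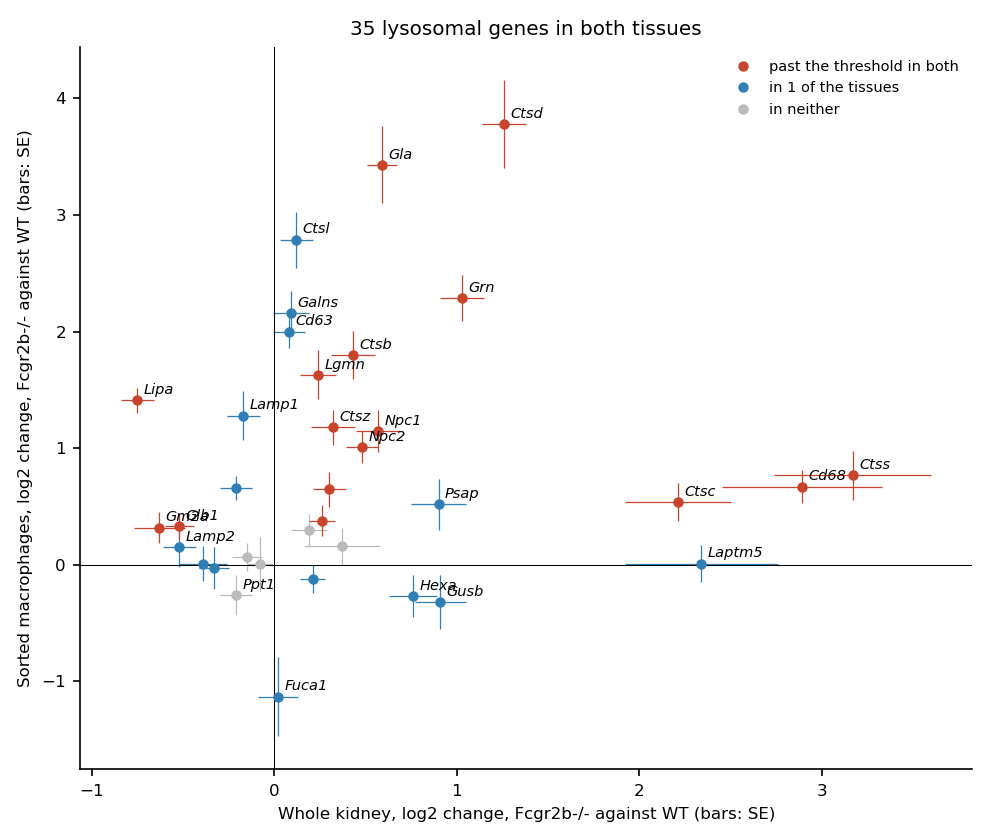
Change of each of the 35 genes in Fcgr2b-/- against WT on the log2(CPM + 1) scale in whole kidney (x axis) and sorted macrophages (y axis), with SE bars; red points passed in both tissues, blue in 1 and grey in neither. Ctss, Cd68, Laptm5 and Ctsc lie far to the right and below the highest macrophage changes. Of these, Ctss, Cd68 and Ctsc also rose in macrophages, and Laptm5 did not pass there. Ctsl, Galns and Cd63 lie high and near 0 in kidney, and Lipa, Gm2a and Glb1 lie to the left of 0 and above it.

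Set side by side, the changes in Fcgr2b-/- against WT had a Spearman rho of 0.23 and a Pearson r of 0.10 over the 35 genes, which share no library between the tissues. A total of 13 genes rose in both tissues, among them Ctsd, Gla, Grn, Ctsb and Ctss, and 0 fell in both. Of the 9884 genes listed in both tables, 10.4% were called higher in both, 10.4% lower in both and 10.8% in opposite directions. Lipa, Glb1 and Gm2a fell in kidney and rose in macrophages, the calls of Glb1 and Gm2a in macrophages being among those lost under other settings, and 8 genes passed in kidney alone, 6 in macrophages alone and 5 in neither. Passing in one tissue and not in the other does not show a difference between tissues, which was not tested. Between the double mutant and Fcgr2b-/-, 5 genes fell in both tissues (Ctsd, Lgmn, Gla, Grn and Npc1), 2 rose in both (Ppt1 and Gm2a) and Lipa moved in opposite directions. Over the same 9884 genes the shares were 4.93% lower in both, 2.98% higher in both and 4.01% opposite.

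**Figure D5:**
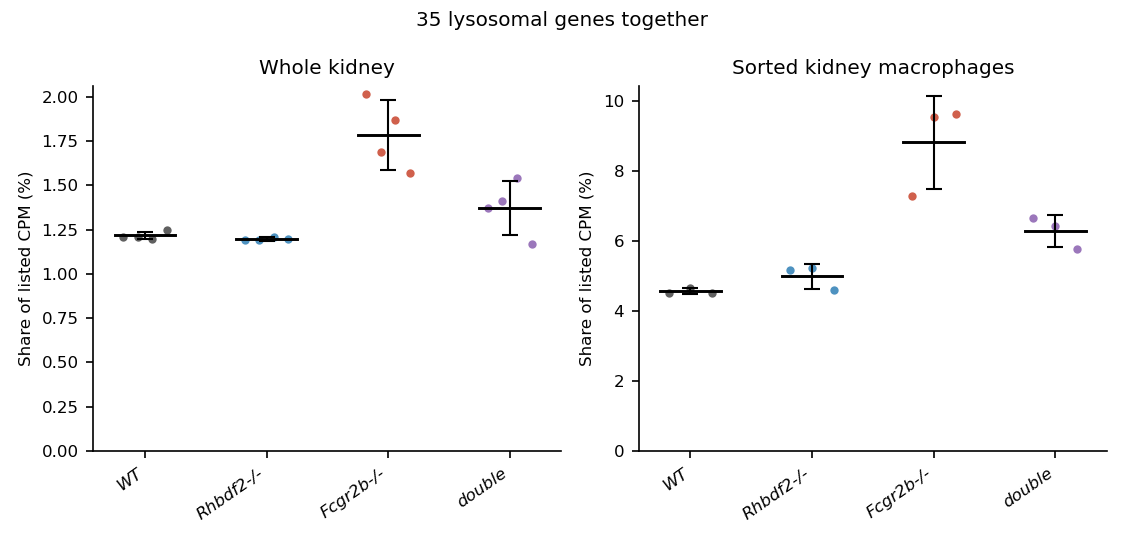
Share of the listed CPM taken by the 35 genes together (y axis, %, from 0) in each library of whole kidney (left) and sorted macrophages (right), with the mean (bar) and SD (whiskers). Macrophage shares were 4.5 to 4.66% in WT, 7.28 to 9.63% in Fcgr2b-/- and 5.77 to 6.65% in the double mutant, and kidney shares 1.2 to 1.25%, 1.57 to 2.02% and 1.17 to 1.54%.

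Other lysosomal genes were counted in lists that hold none of the 35. The shares of all genes called in Fcgr2b-/- against WT, beside which these counts are to be read, were 24.2% higher and 28.5% lower in macrophages and 29.5% and 30.8% in kidney. Of 23 other hydrolases measured in macrophages, 12 rose and 4 fell in Fcgr2b-/- against WT, with a median of 0.35. Acp5, the tartrate-resistant acid phosphatase of osteoclasts and activated macrophages, went from 40.2 ± 4.39 to 933 ± 219 CPM (4.48 ± 0.28), and Pld3, an exonuclease of nucleic acids in the lysosome, from 230 ± 18.3 to 1241 ± 171 CPM (2.42 ± 0.17). In kidney 3 of 24 rose and 8 fell, the sphingomyelinase Smpd1 by -0.65 ± 0.06 and the galactosylceramidase Galc by -0.72 ± 0.09. Of 20 other membrane and transport proteins, 11 rose and 3 fell in macrophages, such as the chloride transporter Clcn7 (1.49 ± 0.20) and Laptm4b (-1.85 ± 0.20), and in kidney 3 rose and 7 fell.

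Subunits of the V-ATPase were counted in the same way. Of its 17 subunits and accessory proteins, 15 rose and 0 fell in Fcgr2b-/- macrophages, with a median of 0.68, and 0 rose and 8 fell in the double mutant against Fcgr2b-/- (15.8% and 13.8% of all genes). The membrane-ring subunit Atp6v0c went from 307 ± 10.4 CPM in WT to 1093 ± 131 in Fcgr2b-/- and 526 ± 77.4 in the double mutant (1.82 ± 0.13 and -1.06 ± 0.13). In kidney 1 subunit rose and 6 fell in Fcgr2b-/-, with Atp6v1b2 at -0.69 ± 0.10 and Atp6v0a1 at 0.46 ± 0.07.

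Of 10 MiT/TFE factors and their regulators, 5 rose and 2 fell in Fcgr2b-/- macrophages. Tfec went from 1.85 ± 0.884 to 20.5 ± 5.64 CPM and was 2.39 ± 1.18 in the double mutant (2.93 ± 0.34 and -2.70 ± 0.34), and Mitf from 23.3 ± 6.63 to 57.8 ± 13.1 and 26.7 ± 4.73 CPM (1.29 ± 0.21 and -1.08 ± 0.21). In kidney Tfec had a change of -0.84 ± 0.15, and 1 of the 10 rose and 5 fell. Of 9 genes of mannose 6-phosphate and sortilin sorting, 3 rose and 3 fell in macrophages, with the receptor Igf2r at 2.61 ± 0.55, and 0 rose and 2 fell in kidney. The macrophage counts of that list lie near the shares over all genes.

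Of the 35 members, 14 overlap another annotated gene, 11 of them a protein-coding one (Ctsa, Ctsb, Ctsd, Ctsz, Lamp1, Hexa, Glb1, Galns, Npc1, Grn and Ppt1). The sources used here do not say whether counting used strand, and values of these genes are uncertain to the extent that reads of a neighbour were counted in them. Ctsd overlaps Ifitm10 and Gm49369, and Glb1 overlaps Tmppe, on the same strand, where use of strand would not part them. The lower coordinate of Ctsd is 142371148 in the files and 142375911 in GENCODE. On the minus strand this is the 3' end of the gene, away from the printed promoter. Lower coordinates also differed for other members, among them Cd63 (128908919 and 128900989), Ctsl (64363214 and 64359337) and Scarb2 (92443873 and 92441314).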

How the data were processed

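RNA sequencing of whole kidney (16 libraries) and sorted kidney macrophages (12 libraries) was deposited as 1 table per tissue. Per the file headers, the authors gave each library's log2 CPM, and for their own comparisons a log2 fold change, a p-value and an FDR, beside each gene's exon length and position. The submitters' processing notes name mm10 and GRCm38. Aligner, counter and annotation: not given in the sources used here. The tables hold 0 further value columns and 0 identical pairs of libraries. CPM was taken back from the deposited log2 values, whose library totals carry a scaling that the sources used here do not describe. Whole reads were recovered within 0.1 read for 2240 of 2240 low kidney values and 2977 of 2977 low macrophage values. Positions are given 1-based on the files' build, and strand and overlaps come from GENCODE vM21.

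Per tissue, limma 3.58.1 (R 4.3.3) with an intensity trend was fitted to log2(CPM + 1) over all listed genes and all 4 genotypes, without covariates, and p-values were Benjamini-Hochberg adjusted within a comparison. A gene was called at an adjusted p below 0.05. The plan assumed CPM, and the tables hold its log2. The script was tested on simulated data. A limma fit with each library left out, voom on recovered reads, library weights, other pseudocounts (0.25, or the deposited log2 values), a mean CPM minimum of 1, other scalings and fits of the compared groups alone were the alternatives. Where a fit leaves out a library, the other groups share in the estimate of spread. The members and lists were chosen with earlier results of these data known. Described in full are, per tissue, the 6 members with the smallest p in Fcgr2b-/- against WT and the 6 in the double mutant against Fcgr2b-/-, and members called in opposite directions in the tissues. A count of 3 reads was worth 0.0677 to 0.106 CPM across kidney libraries and 0.0832 to 0.0988 CPM across macrophage libraries. Titles of the double mutants name only iR2ko, while the genotype label gives both losses. The result of 1 of the 12 marker lists is not reported here.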

Additional observations from a re-analysis of the deposited data

Results flagged for a closer look

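In whole kidney, 140 groups of 4 libraries (35 genes in 4 genotypes) were tested for a library far from the other 3, and 5 were found, where chance gives about 1 in 20 groups. The macrophage groups of 3 were not tested. Ctsb held 1045 CPM in WT_346 against 950 to 962 in the other WT libraries, and Lipa held 495 CPM in WT_346 against 435 to 444. Lipa also held 342 CPM in the double-mutant library iR2ko_370 against 376 to 382. Gusb held 40.5 CPM in the double-mutant library iR2ko_65 against 56 to 56.6, and Npc2 held 247 CPM in FcR2bko_21 against 210 to 214 in the other Fcgr2b-/- libraries.

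The effect of Fcgr2b loss differed with and without Rhbdf2, by limma's test of that difference, for 13 genes in kidney and 9 in macrophages. Over all genes, 13.9% were called higher and 13.9% lower by this test in kidney, and 6.03% and 5.89% in macrophages. Several of these calls were lost without 1 library, as given in the Results. The values are the log2 change without Rhbdf2 minus that with it. In kidney they were -1.12 for Ctsd, -0.67 for Grn, -0.62 for Psap, -0.56 for Gusb, -0.50 for Hexa, -0.50 for Npc1 and -0.40 for Ctsa. Positive kidney values were 0.70 for Lipa, 0.55 for Gm2a, 0.48 for Lamp2, 0.45 for Glb1, 0.41 for Ctsh and 0.41 for Ppt1. In macrophages they were -2.67 for Ctsl, -2.22 for Ctsd, -2.10 for Gla, -1.52 for Grn, -1.35 for Cd63, -1.24 for Lgmn, -1.22 for Galns, -1.10 for Ctsb and 1.01 for Ppt1.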

How the results depend on the processing

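Of 139 called values of the members, 0 reversed. Over 1090 fits under other settings 74 lost the call, and over 1924 fits without 1 library 342 did, leaving 76 called in each fit. A mean CPM minimum of 1 removed no gene. In fits of the compared groups alone, kidney counts were 7 lower (double mutant against Fcgr2b-/-), 0 higher (against Rhbdf2-/-) and 1 lower (against WT), and macrophage counts 1 higher (double mutant against Fcgr2b-/-) and 9 higher (against WT). With library weights, the double-mutant kidney had 13 higher and 2 lower against Rhbdf2-/- and 12 higher and 5 lower against WT. Over all 12315 genes, weights called 1899 higher and 2102 lower against Rhbdf2-/-, where the main fit called 286 and 145. Against WT they called 1763 and 2171, where the main fit called 557 and 341. In macrophages, weights gave 8 higher for Rhbdf2-/- against WT, 1 lower for the double mutant against WT and 13 negative differences between the effects of Fcgr2b loss. Over all 10523 genes these weighted fits called 685 higher and 478 lower, 2309 and 2439, and 1563 positive and 1510 negative, in that order. By voom the double-mutant kidney had 1 higher against Rhbdf2-/- and 3 against WT. Centring gave 1 lower for the double-mutant kidney against WT, 3 negative differences of effect in kidney and 1 higher for double-mutant macrophages against Fcgr2b-/-. The non-mitochondrial total gave 3 positive and 12 negative differences of effect in kidney and 2 lower for Fcgr2b-/- macrophages. The cause was not tested.

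Without 1 library, the double-mutant kidney had 0 to 8 higher against Rhbdf2-/- and 1 to 7 higher and 0 to 2 lower against WT, and 2 to 9 negative differences of effect. In macrophages the ranges were 0 to 1 lower (Fcgr2b-/- against WT), 1 to 2 higher and 7 to 12 lower (double mutant against Fcgr2b-/-), 4 to 15 higher and 0 to 2 lower (against Rhbdf2-/-), 9 to 18 higher and 0 to 1 lower (against WT), and 0 to 1 positive and 5 to 11 negative differences of effect. Precision is limited by the 3 or 4 libraries per group. No paired analysis was possible because the labels give the genotypes no shared animal, litter or replicate number.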

Other observations

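Cathepsin inhibitors and autophagy genes were also counted, beside 29.5% of all genes higher and 30.8% lower in Fcgr2b-/- kidney and 24.2% and 28.5% in Fcgr2b-/- macrophages. For the double mutant against Fcgr2b-/- the shares of all genes were 22.5% higher and 22.8% lower in kidney and 15.8% and 13.8% in macrophages. In Fcgr2b-/- kidney, 4 of 4 measured inhibitors rose against WT, among them Serpinb6a (1.11), Cstb (1.10) and Serpinb1a (1.08), cytosolic inhibitors of serine and cysteine proteases, and 3 of the 4 fell in the double mutant against Fcgr2b-/-. In macrophages 2 of 5 rose and 2 fell, with the cytosolic inhibitor cystatin B (Cstb) at 2.96. Of 16 autophagy genes, 7 rose and 2 fell in Fcgr2b-/- macrophages, with Gabarap at 1.15, Atg5 at 1.07 and Atg7 at 1.17, and 0 rose and 5 fell in the double mutant against Fcgr2b-/-. In kidney 3 rose and 6 fell on loss of Fcgr2b, and 4 rose and 3 fell in the double mutant against Fcgr2b-/-. The latter counts lie near the shares over all genes.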
